A study of Mus musculus with 10 samples.

Results

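The endothelin genes were followed here as a family of 7: the peptide genes Edn1, Edn2 and Edn3, the receptor genes Ednra and Ednrb, and the converting enzyme genes Ece1 and Ece2. They were taken by symbol from a table of 55421 genes, in which each symbol occurred once, and all 7 were among the 18509 genes that passed the filter on low counts and were tested. The tissue was ulcer tissue of db/db mice, a strain with a mutant leptin receptor that becomes obese and diabetic, wounded by surgical excision. After 7 days of administration, RNA was sequenced from 5 libraries of ulcers given saline (the control group) and 5 libraries of ulcers given saline together with Fu Huang ointment, a topical preparation. Both groups carried the same mutation and the same wound, and neither intact skin nor non-diabetic wounds were analysed here. The series' title names an axis of Lpar1, a receptor for lysophosphatidic acid, and Edn1, so the question for this family was whether its transcripts differed with the ointment.

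Endothelins are short peptides, each cut from a longer precursor by a furin-type protease and then by an endothelin converting enzyme. Endothelin 1, made mainly by the cells lining blood vessels, acts through the receptor encoded by Ednra to contract vascular smooth muscle and stimulate fibroblasts. The receptor encoded by Ednrb triggers release of nitric oxide from endothelial cells and removes endothelin from the blood, and with endothelin 3 it guides the melanocyte and enteric nerve lineages of the neural crest. The 3 peptides are close relatives, as the coding sequence of each mature peptide shows. The sequences are read from the GENCODE release M21 transcripts on GRCm38 and run 5′ to 3′, with the 4 cysteine codons, which form the peptides' disulfide bridges, in capitals.
Edn1: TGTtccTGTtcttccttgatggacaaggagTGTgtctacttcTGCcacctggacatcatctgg
Edn2: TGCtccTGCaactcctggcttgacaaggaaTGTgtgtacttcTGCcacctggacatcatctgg
Edn3: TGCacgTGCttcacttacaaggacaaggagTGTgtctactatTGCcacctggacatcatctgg
Each stretch is 63 bases, or 21 codons, and lies on the plus strand within coding exon 2 of 5 of its gene, at chr13:42303649-42303711 in Edn1, chr4:120161951-120162013 in Edn2 and chr2:174761749-174761811 in Edn3. Edn1 and Edn2 differed at 10 of the 63 bases, Edn1 and Edn3 at 13, and Edn2 and Edn3 at 15. The encoded peptides differed at 3 of 21 residues between Edn1 and Edn2 and at 6 in each pair with Edn3. The last 7 codons, from the fourth cysteine codon to the tryptophan codon after which the converting enzyme cuts, were identical in all 3.

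The total counts were 58145331 to 62664018 in the saline and 47807353 to 62896034 in the ointment libraries, and no listed marker of blood endothelium, pericytes, fibroblasts or keratinocytes, the cells of wounded skin, was at 0 in any library. Marker sums of macrophages, hair follicle, melanocytes, pericytes and differentiated keratinocytes did not overlap between the groups, while those of the other cell types listed did. Summed over 9 macrophage markers, the level ranged from 2260 to 4730 CPM (counts relative to library size, scaled by the TMM method) with saline and 5520 to 9380 CPM with ointment. Over 12 hair follicle markers the range was 52.1 to 735 CPM in saline libraries and 21.5 to 47.7 CPM in ointment libraries. Such sums weigh abundant genes most: a single pericyte marker averaged 412 CPM of a sum averaging 747 CPM with saline. Estimates went against the sum for 3 of 10 differentiated keratinocyte, 1 of 8 pericyte and 1 of 7 melanocyte markers tested. None of the 12 hair follicle or 9 macrophage markers did so. In whole tissue, fewer cells of a type and less RNA per cell cannot be told apart.

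Transcripts of all 3 peptide genes had lower means with ointment, and of these Edn2 passed the test. Edn2, the peptide gene known from intestine and ovary, was at 3.0, 1.58, 0.827, 0.854 and 0.892 CPM in saline libraries 1 to 5. With ointment it was at 0.0852, 0.299, 0.264, 0.287 and 0.208 CPM. Every ointment library lay below every saline library, and the highest saline value was in saline 1. The means were 1.43 ± 0.930 CPM (SD, n = 5) and 0.229 ± 0.0874 CPM, and Edn2 fell by 2.63 on the log2 scale (SE 0.50, 95% interval -3.74 to -1.52, adjusted p = 0.0336 by edgeR's quasi-likelihood test with Benjamini-Hochberg adjustment over all genes). This is a 6.18-fold lower level. Edn2 was the 1 gene of the 7 that was called, against 1.67% of all genes tested called in either direction and 0.983% called lower. The ointment values rested on 4, 16, 16, 16 and 11 counts, against 50 to 180 counts with saline. The call was lost in 8 of the 10 fits that left out 1 library (adjusted p 0.0514 to 0.084) and kept without saline 5 (0.0443) or without ointment 4 (0.0486), while the estimate stayed between -2.79 and -2.18. With limma voom in place of edgeR it was -2.43 (adjusted p = 0.0631).

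Edn3, the ligand that melanocyte precursors need, had the fewest transcripts of the 3 in both groups per kilobase of exon, though not in CPM with ointment. It was at 0.866, 0.579, 0.727, 0.712 and 0.727 CPM with saline and at 0.192, 0.299, 0.562, 0.125 and 0.473 CPM with ointment. The groups did not overlap here either, though ointment 3 and saline 2 lay close together. The log2 fold change was -1.12 (SE 0.42, 95% interval -2.05 to -0.19) and did not pass the threshold once adjusted over all genes (adjusted p = 0.202 by edgeR). So 2 of the 7 genes had ointment libraries wholly below the saline libraries, as was true of 3.44% of all genes tested, and none had them wholly above, as 3.11% did (6.54% in either direction). Counts of Edn3 were 7 to 34 with ointment and 36 to 52 with saline.

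Edn1, the gene named in the title (chromosome 13, 42301476 to 42307990), was the most abundant peptide gene. It was at 7.89, 11.2, 9.22, 6.83 and 9.30 CPM in the saline libraries and at 9.23, 5.04, 7.05, 6.74 and 3.39 CPM in the ointment libraries. In 3 ointment libraries it was below the lowest saline library, while ointment 1 was as high as the saline median of 9.22 CPM and the groups overlapped. The log2 fold change was -0.50 (SE 0.27, 95% interval -1.09 to 0.09, adjusted p = 0.381 by edgeR), so a decrease of up to 1.09 or an increase of 0.09 lay within the interval. A 35-base stretch of its exons is shared with an antisense gene, Gm47118, which held 0 to 4 counts in every library.

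**Figure D1:**
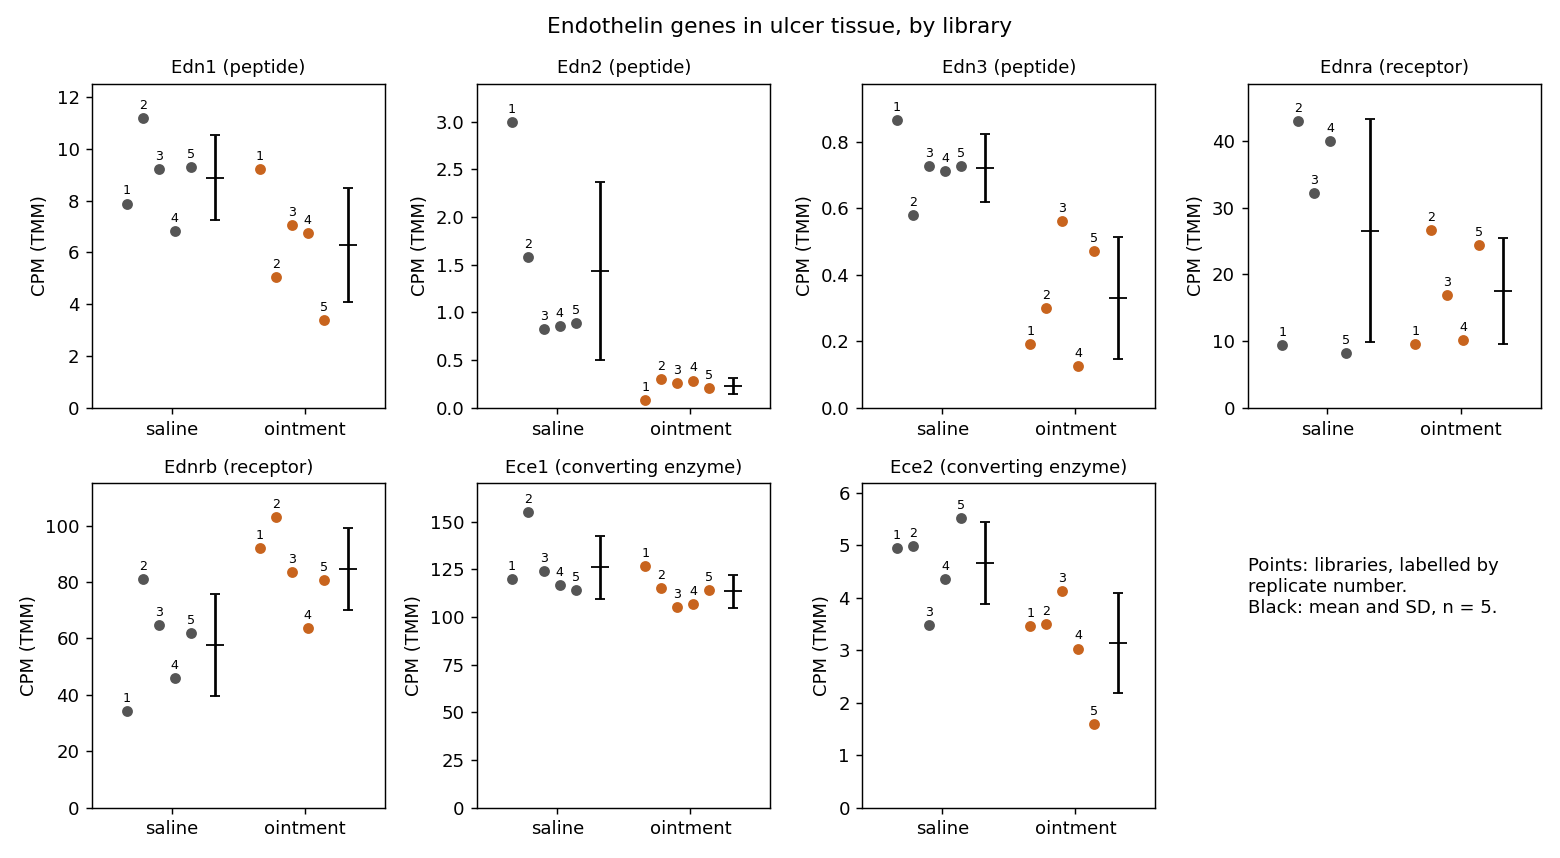
Level of each of the 7 endothelin genes in TMM-normalized CPM (y axis, from 0) in saline (grey) and ointment (orange) libraries, numbered by replicate, with the mean and SD (n = 5) in black. The ointment libraries of Edn2 and Edn3 all sit below the saline libraries, while the groups overlap for the other 5 genes.

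The makeup of the peptide transcripts differed as well. To compare genes with each other, CPM were divided by the length of each gene's merged exons in kilobases. On that scale Edn1 made up 62.0, 81.2, 85.3, 80.8 and 84.7% of the summed transcript of the 3 peptide genes in the saline libraries. In the ointment libraries it made up 97.6, 89.5, 91.2, 93.3 and 86.0%. Edn2's share was 11.2 to 34.5% with saline and 1.32 to 7.76% with ointment, and the groups did not overlap in either share. For Edn1 they nearly met, at 85.3% in saline 3 and 86.0% in ointment 5. The merged exons of Edn3 are 4113 bases and its longest transcript is 3117 bases. Shares by the longest transcript were not computed, so the narrow gap in Edn1's share may depend on the length used. Edn3's share was 2.17 to 4.38% and 0.903 to 6.25%. The shares follow from the levels above and were not tested.

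No relation between Edn1 and Lpar1 across the libraries passed a test. Lpar1 was at 89.2, 35.9, 36.1, 21.8 and 31.8 CPM with saline and at 51.9, 91.2, 26.6, 38.1 and 22.6 CPM with ointment. The highest Lpar1 values, in saline 1 and ointment 2, came with Edn1 values in the middle and lower part of its range. Over the 10 libraries, log2 CPM of Edn1 and Lpar1 gave Pearson's r = 0.117 (permutation p = 0.757, two-sided, 100000 resamples) and Spearman's rho = 0.0667 (permutation p = 0.864), the single relation of this kind that was tested. Without saline 1 and ointment 2, the libraries farthest from the median of Lpar1, r was 0.632 (permutation p = 0.0875). Without ointment 5 it was -0.29 (permutation p = 0.443), so its sign rested on single libraries. After subtraction of each group's mean r was 0.189. Correlations within each group of 5 libraries were not computed.

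The genes whose pattern lay closest to that of Edn1 are known from blood vessels. Of 13943 named genes with at least 1 CPM on average, the 3 with the highest Pearson's r of log2 CPM over the 10 libraries were Col15a1, a collagen of vascular basement membranes (r = 0.973), Plvap, a protein of the pores of fenestrated capillaries (0.968), and Sox18, an endothelial transcription factor (0.964). They were picked as the highest values, so no test is given. With each group's mean subtracted the values were 0.960, 0.980 and 0.955, and without the 2 libraries farthest from each gene's median they were 0.969, 0.908 and 0.860. Ointment 5, the lowest library for Edn1, was also the lowest in the summed level of 10 blood endothelial markers, Sox18 among them, at 417 CPM. Saline libraries held 677 to 994 CPM of these markers and ointment libraries 417 to 747 CPM. All 10 of those markers had negative fold changes and none was called. Per 100 CPM of endothelial markers there were 1.16 ± 0.123 CPM of Edn1 with saline (SD, n = 5) and 1.09 ± 0.165 CPM with ointment, with ranges of 1.01 to 1.32 and 0.812 to 1.23 that overlapped. The part of endothelial cells in the Edn1 level was not tested.

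**Figure D2:**
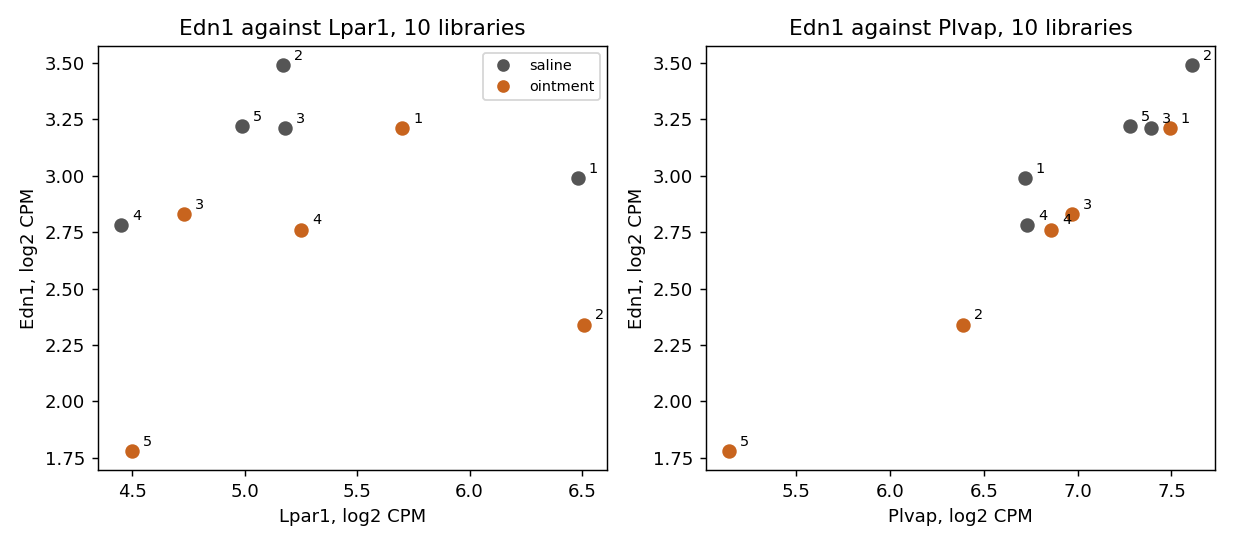
Edn1 (y axis, log2 CPM) against Lpar1 (left) and Plvap (right, both log2 CPM) in the 10 libraries, with saline in grey, ointment in orange and replicate numbers beside the points. Points scatter widely against Lpar1 (r = 0.117) and lie near a line against Plvap (r = 0.968), which was picked among 13943 genes for its high r.

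Hair follicle markers moved with Edn2. Of 12 tested, 8 were called lower, beside 0.983% of all genes tested, and Krt25, Krt28, Krt73 and Shh were at 0 in some library. Saline 1, the highest library for Edn2, also had the highest hair follicle sum (735 CPM), but saline 5 had a sum of 52.1 CPM with 0.892 CPM of Edn2. Per 100 CPM of these markers there were 0.655 ± 0.591 CPM of Edn2 with saline and 0.783 ± 0.360 CPM with ointment (SD, n = 5), which overlapped. The sums were made of different genes, however. A single marker that was not called averaged 18.2 CPM of a mean sum of 30.9 CPM with ointment. With saline it averaged 55.2 CPM of 325 CPM. Markers of differentiated keratinocytes summed to 4280 to 10400 CPM in saline and 1560 to 3580 CPM in ointment libraries. Of these 10 markers 2 were called lower, 3 had positive estimates and none was at 0. Per 100 CPM of them there were 0.0213 ± 0.00844 CPM of Edn2 with saline and 0.00994 ± 0.00422 CPM with ointment (SD, n = 5), and the groups overlapped. The part of these cells in the lower Edn2 level was not tested. The nearest patterns to Edn2 were those of Hace1, a ubiquitin ligase gene (r = 0.982), Calhm5 of the calcium homeostasis modulator family (0.970) and Tjp3, a tight junction gene (0.969). For Edn3 they were Mga (0.942), Zfp184 (0.927) and Dhx16 (0.925), values that were 0.804, 0.673 and 0.786 without the 2 farthest libraries.

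The receptor genes had estimates of opposite sign, and neither passed the test. Ednrb, the endothelial and melanocyte receptor, was at 34.3, 81.2, 64.8, 45.8 and 62.0 CPM with saline and at 92.0, 103, 83.4, 63.6 and 80.8 CPM with ointment. In 3 ointment libraries it exceeded the highest saline library, and saline 1 was the lowest of all. The means were 57.6 ± 18.1 and 84.5 ± 14.5 CPM (SD, n = 5). The log2 fold change was 0.55 (SE 0.23, 95% interval 0.05 to 1.05), and did not pass once adjusted over all genes (edgeR adjusted p = 0.245). It was the 1 member with a positive estimate.

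The Ednrb estimate was positive, while those of all 10 blood endothelial markers and of 6 of the 7 melanocyte markers tested were negative. Per 100 CPM of blood endothelial markers there were 7.43 ± 1.73 CPM of Ednrb with saline and 15.9 ± 5.51 CPM with ointment (SD, n = 5), and the ranges of 4.70 to 8.78 and 10.4 to 23.7 did not overlap. Melanocyte markers summed to 51.0 to 110 CPM with saline and 27.5 to 47.4 CPM with ointment, with means of 72 and 35.1 CPM. The 1 marker with a positive estimate averaged 22.4 CPM of that sum with saline and 23.9 CPM with ointment. The sum thus held a different mix of these markers in each group. Of the 7 tested 4 were called lower, beside 0.983% of all genes tested, and Oca2 was at 0 in some library. Per 100 CPM of melanocyte markers there were 31.2 to 122 CPM of Ednrb with saline and 176 to 361 CPM with ointment, without overlap. The melanocyte sums did not overlap either, so a gene of unchanged level could show such a gap. How many other genes show a gap per 100 CPM of endothelial or melanocyte markers was not computed. These ratios were not tested. Of 9 macrophage markers 3 were called higher, beside 0.692% of all genes tested. Per 100 CPM of these markers the Ednrb level was 1.68 ± 0.832 CPM in saline and 1.22 ± 0.241 CPM in ointment libraries, and the groups overlapped. The nearest patterns to Ednrb were Ap2a2, a subunit of the clathrin adaptor (r = 0.973), Tbcb, a tubulin folding cofactor (0.956), and Cd163, a scavenger receptor of macrophages (0.951). Without the 2 libraries farthest from its median, saline 1 and saline 4, the value for Cd163 was 0.785. The part of endothelial cells, melanocytes or macrophages in the Ednrb level was not tested.

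Ednra, the receptor of vascular smooth muscle and fibroblasts, had the largest within-group SD of log2 CPM among the members. It was at 9.35, 43.0, 32.2, 39.9 and 8.26 CPM in the saline libraries and at 9.55, 26.6, 16.9, 10.1 and 24.4 CPM in the ointment libraries. Saline 1 and 5 were as low as ointment 1 and 4, and the highest saline library was 5.21 times the lowest. The log2 fold change was -0.60 (SE 0.52, 95% interval -1.75 to 0.55, adjusted p = 0.634 by edgeR). That SD was 0.96, larger than in 89.9% of 5435 genes within 2-fold of its level. Saline 1 and 5 were the highest saline libraries in markers of pericytes, which summed to 868 and 773 CPM there, against 662 to 751 CPM in the other saline libraries. Smooth muscle markers summed to 1150 and 1290 CPM in these libraries, against 865 to 1070 CPM. Fibroblast markers summed to 24100 and 28300 CPM there, against 17500 to 27100 CPM in the other saline libraries. Between the groups, the pericyte sum was 662 to 868 CPM in saline and 298 to 605 CPM in ointment libraries, without overlap, with 7 of 8 markers negative and none called or at 0. The smooth muscle sum was 759 to 1680 CPM in ointment libraries and overlapped. Of its 8 markers, however, 7 had negative estimates and 1 of these was called lower. The marker with a positive estimate averaged 251 CPM of a mean sum of 1050 CPM in saline libraries. In ointment libraries that marker averaged 491 CPM of 1110 CPM. The fibroblast sum, 17500 to 28300 CPM with saline and 11500 to 32500 CPM with ointment, overlapped too. The part of pericytes, smooth muscle cells or fibroblasts in the Ednra estimate was not tested. The nearest patterns were Mtmr6, a phosphoinositide phosphatase gene (r = 0.975), Magef1 (0.944) and Zfp189 (0.942), none of them in the marker lists. Magef1 was at the floor of -4.85 log2 CPM in saline 1, saline 5, ointment 1 and ointment 4, the lowest libraries for Ednra. Zfp189 was also lowest there, at -1.78 to -0.79. Mtmr6 was lowest in the same libraries as well, at 5.52 to 6.02. The r values of Mtmr6, Magef1 and Zfp189 may thus rest in part on a split between those libraries and the rest, which was not tested. A 91-base stretch of Ednra exon is shared with 4933431K23Rik on the other strand, which held 16 to 44 counts, against 448 to 2676 for Ednra.

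Ednrb transcript outweighed Ednra transcript in every library. The log2 ratio of Ednra to Ednrb, per kilobase, was -2.23, -1.28, -1.37, -0.561 and -3.27 with saline and -3.63, -2.31, -2.66, -3.01 and -2.09 with ointment. The means were -1.74 ± 1.04 and -2.74 ± 0.609 (SD, n = 5). The ratio was lower in ointment on average, but saline 5 was below every ointment library except ointment 1, and the groups overlapped. The merged exons are 5476 bases in Ednra and 4266 in Ednrb, while the longest transcripts are 3625 and 4107 bases. Ratios by the longest transcript would be higher in every library and were not computed.

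**Figure D3:**
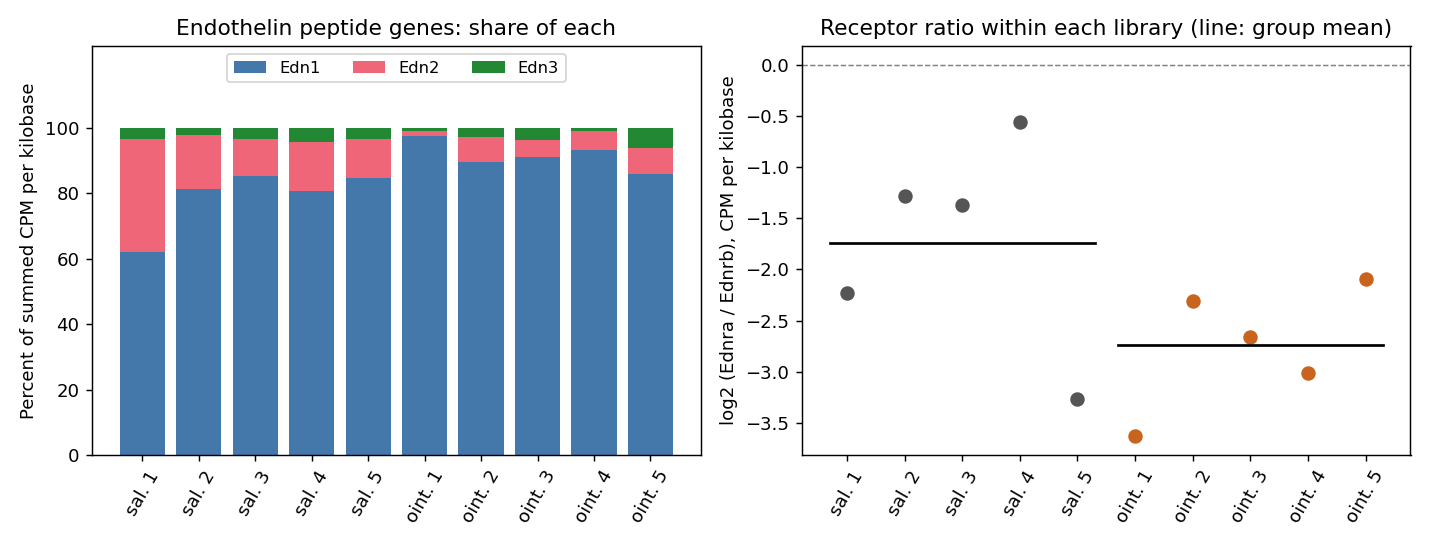
Left, share of each peptide gene in the summed CPM per kilobase of Edn1, Edn2 and Edn3 (stacked bars, percent) in each library; right, log2 ratio of Ednra to Ednrb in CPM per kilobase in each library, with a line at each group's mean. Edn2 takes 11.2 to 34.5% with saline and 1.32 to 7.76% with ointment, and every receptor ratio is below 0.

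Of the converting enzymes, Ece1, the main endothelin converting enzyme, was the steadiest gene of the family. It was at 120, 155, 124, 117 and 114 CPM with saline and at 127, 115, 105, 107 and 114 CPM with ointment. All but saline 2 lay between 105 and 127 CPM. The log2 fold change was -0.15 (SE 0.11, 95% interval -0.39 to 0.09, adjusted p = 0.561 by edgeR). The genes nearest to it in pattern were Elof1 (r = 0.917), Gna11, which encodes a G protein subunit that endothelin receptors couple to (0.908), and Pitpnb (0.847). Without the 2 farthest libraries these were 0.623, 0.851 and 0.692.

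Ece2, a relative of Ece1 that works at acid pH and is best known from nerve cells, was far lower. It was at 4.94, 4.98, 3.47, 4.35 and 5.52 CPM with saline and at 3.45, 3.49, 4.13, 3.03 and 1.59 CPM with ointment. The groups overlapped, and 3 ointment libraries were below the lowest saline library. The log2 fold change was -0.57 (SE 0.26, 95% interval -1.15 to 0.02, adjusted p = 0.307 by edgeR). Of the 5110 exon bases of Ece2, 2937 are shared with Gm49333, a locus annotated on the same strand, so reads there could be given to either. Gm49333 held 57 counts in ointment 5, the lowest library for Ece2, and 0 counts in the other 9 libraries. Counted together, a choice made after the values were seen, the pair gave a log2 fold change of -0.47 (adjusted p = 0.252 by edgeR), and ointment 5 rose from 1.59 to 2.67 CPM. The nearest patterns to Ece2, counted alone, were Rad1 (r = 0.955), Icam2, an adhesion molecule of endothelial cells (0.945), and Aldh18a1 (0.944). Without the 2 farthest libraries these were 0.922, 0.788 and 0.843, and without ointment 5 they were 0.934, 0.841 and 0.830.

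Ordered by level per kilobase of exon in the saline ulcers, the family ran from Ece1 (23.8 ± 3.14 CPM per kilobase, SD, n = 5) through Ednrb (13.5 ± 4.24), Ednra (4.85 ± 3.04), Edn1 (4.16 ± 0.776), Edn2 (0.977 ± 0.636) and Ece2 (0.911 ± 0.153) to Edn3 (0.176 ± 0.0247). Of these neighbours, Ednra and Edn1 overlapped in range, with Ednra the higher in 3 of 5 libraries. Edn2 and Ece2 overlapped as well, with Edn2 the higher in 2 of 5, and the higher mean of Edn2 went with its value of 2.05 CPM per kilobase in saline 1, against 0.565, 0.584 and 0.61 in saline 3, 4 and 5. Divided by the longest transcript instead, Ece2 (1.35) stood above Edn2 (0.977), and Ednrb (8.34 to 19.8) overlapped Ednra (2.28 to 11.9). The ranges of the other neighbouring pairs by merged exons did not overlap. With ointment, Ece1 (21.4 ± 1.62) and Ednrb (19.8 ± 3.40) came to overlap, with Ece1 above Ednrb in 4 of 5 libraries. Ednra (3.20 ± 1.44) and Edn1 (2.94 ± 1.03) overlapped as before, with Ednra the higher in 2 of 5 libraries. Ece2 (0.614 ± 0.186) then stood apart from Edn2 (0.156 ± 0.0598), while Edn2 and Edn3 (0.0803 ± 0.0448) overlapped in range, although Edn2 was the higher of the pair in each of the 5 libraries.

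**Figure D4:**
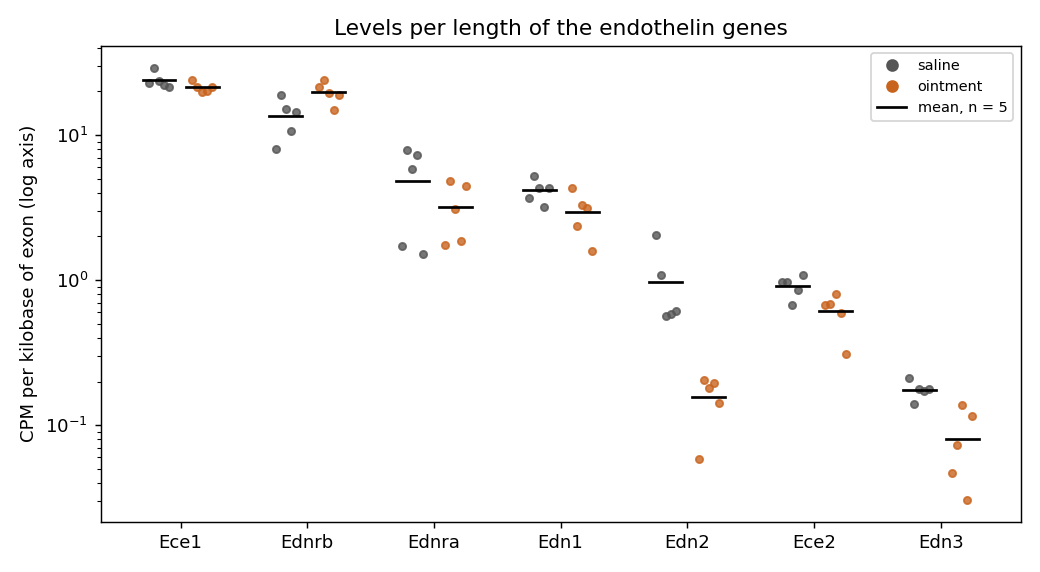
Level of each gene in CPM per kilobase of merged exons (y axis, log scale) by library, with saline in grey, ointment in orange and a black line at each mean (n = 5). Ece1 and Ednrb stand highest in both groups, and the Edn2 libraries overlap those of Ece2 with saline and those of Edn3 with ointment.

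As a family, 6 of the 7 genes had negative estimates, beside 50.3% of all genes tested, and the median log2 fold change was -0.57 beside -0.0025 over all genes. These are descriptions of genes chosen with earlier results known, and a single member passed the test.

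**Figure D5:**
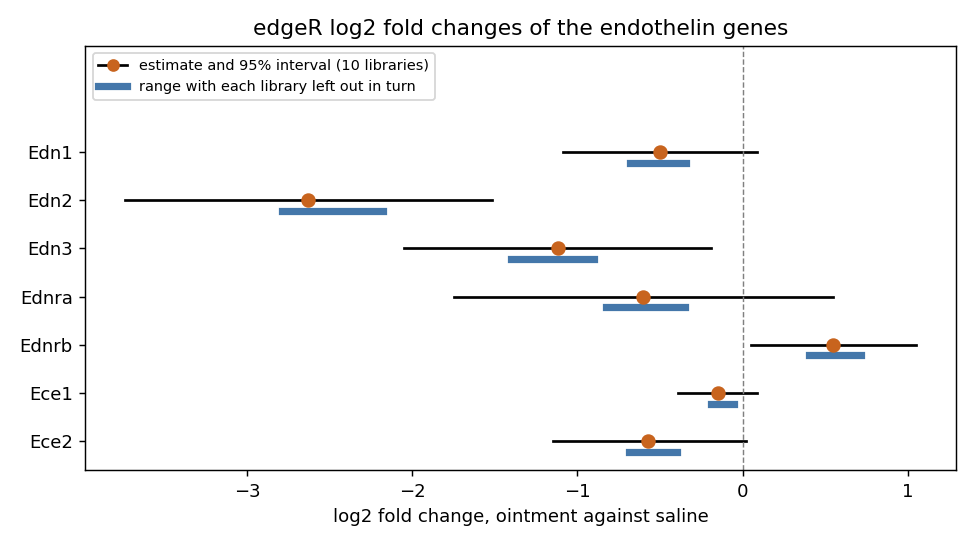
Log2 fold change of each gene, ointment against saline (x axis), with its 95% interval from edgeR (black) and the range of the estimate when each library is left out in turn (blue). The interval of Edn2 runs from -3.74 to -1.52, Edn3 lies below 0 and Ednrb above 0 by their unadjusted intervals, and those of Edn1, Ednra, Ece1 and Ece2 include 0.

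Enzymes that ripen or break down endothelins did not pass the test. Of 9 listed, 7 were tested and 0 were called, while Kel and Ecel1 were below the filter. Of the 7, 6 had positive estimates and the median log2 fold change was 0.17, beside 49.7% positive and -0.0025 over all genes tested. Some of those with positive estimates are also mast cell markers. Mmp2, a gelatinase that can also cut the endothelin 1 precursor, averaged 1150 ± 206 CPM in saline ulcers and 602 ± 184 CPM in treated ones (SD, n = 5), an estimate of -0.93 on the log2 scale (edgeR adjusted p = 0.0778). Furin, the protease of the first cut, averaged 57.1 ± 18.1 and 117 ± 70.6 CPM (estimate 1.03, adjusted p = 0.192). Mme, or neprilysin, which degrades endothelins, had an estimate of 0.33 (adjusted p = 0.592).

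Of 22 genes of signalling from the receptors, 1 was called, 12 had positive estimates and the median was 0.12, beside 1.67% called, 49.7% positive and a median of -0.0025 over all genes tested. A single call of 22 is not a result about the list. The called gene was Plcb3, a phospholipase C that Gq proteins activate, which fell by 0.40 on the log2 scale (SE 0.08, edgeR adjusted p = 0.0416), with means of 89.0 ± 4.58 CPM in saline and 67.6 ± 3.63 CPM in treated ulcers (SD, n = 5). Arrb2, a beta-arrestin that shuts receptors off, had an estimate of 0.55 (adjusted p = 0.0736), and Plcb2, the phospholipase C of blood cells, 0.60 (adjusted p = 0.084). Of 11 regulators of Edn1 transcription 0 were called, and the smallest p-values were those of Jun (-0.23, adjusted p = 0.308), Hif1a (0.60, adjusted p = 0.311) and the nitric oxide synthase gene Nos3 (-0.32, adjusted p = 0.482). Of 8 matrix genes known to respond to endothelin 1 in fibroblasts 0 were called, with a median of -0.19. Ccn2, a matrix growth factor, averaged 48.5 ± 11 CPM in saline and 85.2 ± 14.8 CPM in treated ulcers (estimate 0.81, adjusted p = 0.0584). Timp1, an inhibitor of matrix proteases, had an estimate of 1.1 (adjusted p = 0.438).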

How the data were processed

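The members and gene lists were chosen with earlier results of these data known. The deposited table holds estimated counts per Ensembl gene, as whole numbers that differ in total between libraries, deposited by the authors without a stated normalization, on the GRCm38 build (also named mm10 in the submitters' processing notes); the aligner, counting program and annotation were not given in the sources used here. Low values favour multiples of 4: among genes with 1 annotated transcript the value 4 occurred 6129 times, against 3025 for 3 and 3847 for 5, so 1 count may not be 1 read; the test planned for raw counts was kept, with no rounding needed. No source says that the libraries kept strand, so antisense partners cannot be told apart. Whether each library is 1 animal is not in the labels. The p-values then cover only the spread among these libraries, part of which may be technical.

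Groups were compared with edgeR 4.0.16 (R 4.3.3): filterByExpr defaults (minimum count 10, total 15), TMM, robust quasi-likelihood F-test, group as the only term, two-sided p-values adjusted over 18509 genes, threshold 0.05. Intervals used the t quantile with edgeR's total degrees of freedom. Of all genes 310 were called (128 higher, 182 lower with ointment). Log2 CPM used a prior count of 2. Positions and exon lengths came from GENCODE M21, which held 55240 of the 55421 IDs; mature peptide codons were found by the spacing of the cysteines. The pipeline was tested on simulated counts. Alternatives used DESeq2 1.42.0 and limma 3.58.1 among others. Named were all members, Lpar1, the 3 genes of smallest p per pathway list, and the 3 nearest patterns per member, except 1 gene of the matrix list that is not reported here; markers are given by list.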

Additional observations from a re-analysis of the deposited data

Results flagged for a closer look

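In 16 groups of 5 libraries (the 7 endothelin genes and Lpar1 in each treatment), the highest and lowest library were compared with the rest by Dixon's criterion, which flags about 1 in 20 groups by chance. Ece1 was at 155 CPM in saline 2, against 114 to 124 CPM in the other saline libraries. Lpar1 was at 89.2 CPM in saline 1, against 21.8 to 36.1 CPM in the others.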

How the results depend on the processing

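The log2 fold changes of the 7 genes kept their direction under every alternative in which they could be fitted, and Edn1, Edn3, Ednra, Ednrb, Ece1 and Ece2 were called in none (Edn1 ranged from -0.68 to -0.34, adjusted p 0.232 to 0.612). Edn2 kept its call under the other scalings, without the low-count filter, without robust dispersion, with values divided by 4 and with DESeq2. It was -2.43 without a call with limma voom (adjusted p = 0.0631), -2.44 with the replicate number as a block (0.213) and -2.13 with 4 libraries per group, without saline 1 and ointment 5 (0.134). With 1 library left out Edn2 ranged from -2.79 to -2.18, and the number of the 7 genes called from 0 to 1. That number was also 0 with voom, the block, 4 libraries per group and a filter of at least 1 CPM in 5 libraries, which removed Edn2 and Edn3. Over all genes, 310 calls became 1677 with DESeq2, 0 with the replicate block (2602 at an unadjusted p under 0.05), 59 with 4 libraries per group, and 102 (without ointment 3) to 422 (without ointment 4) with 1 library left out (260 without saline 5, and 102 to 184 without each of the other 8). Over all genes, same-numbered libraries did not deviate together (correlations -0.0772 to 0.0562, and none best with its own number). This check cannot exclude a pairing that moves few genes, and the labels do not settle it. The causes of the changes in calls were not tested. The Edn1 and Lpar1 correlation was -0.357 with 4 libraries per group and -0.29 (without ointment 5) to 0.433 (without ointment 2) with 1 library left out. Divided by the longest transcript, the saline levels of Edn3 and Ece2 were 0.232 and 1.35 CPM per kilobase. Counts of 4 to 16 limit the precision of Edn2 with ointment.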
